A study of Mus musculus with 6 samples.

Results

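WNT ligands, their receptors and co-receptors, and the genes that report or restrain the pathway form a list of 50 mouse genes, chosen by a rule that names the genes and uses no measured value, although it was drawn up with earlier results of these data known. All 50 were found among the 22032 genes of the deposited expression table. They were followed in 6 RNA-seq samples of cartilage chondrocytes, 3 embryonic and 3 adult, for which the labels name no mutation and no treatment. The embryonic cells came from E16.5 embryos by the study's text, whereas the labels write the same number as 16.5 wks. The sex of the embryos was not given, and the study's text states no strain for them. The adult cells came from male B6 mice aged 2 months. In both stages the cells were sorted as LIN-ALP-BMPR1B+, that is, without blood and endothelial surface markers (CD31, CD45 and Ter119 in the adults), without alkaline phosphatase and with the BMP receptor BMPR1B, which the study used to enrich chondrocytes. The number of animals behind a sample was not given. The design text calls the samples biological replicates, so the p-values measure the spread between these samples.

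WNT proteins are secreted lipid-modified ligands. When one binds a Frizzled receptor together with the co-receptor LRP5 or LRP6, a complex that otherwise destroys beta-catenin is held back, and beta-catenin enters the nucleus, where it works with the TCF/LEF transcription factors. R-spondins bind Lgr receptors and spare Frizzleds from removal by the ubiquitin ligases RNF43 and ZNRF3, and other branches run through ROR and RYK receptors without beta-catenin. In developing joints, WNT signals are known to take part in setting joint tissue apart from growing cartilage and in the maturation of growth plate chondrocytes.

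The values are log2(TPM + 1), where TPM is the share of a gene's transcripts among all transcripts, scaled to a fixed total and corrected for transcript length, so that levels of different genes can be set side by side. All levels below are in TPM, and all differences are adult minus embryonic on the log2(TPM + 1) scale with their standard error (SE, n = 3 per stage). This scale understates the change of genes with few transcripts. The difference was tested with limma over the 13125 genes that averaged 1 TPM or more, and a gene was called at a Benjamini-Hochberg adjusted p under 0.05. TPM keeps no sequencing depth, and the read totals that the study reports in its supplement were not used here. The depth behind a value was therefore not weighed, and a value of 0 need not mean an absent transcript. Over all genes, 6 values of 0 stood beside at least 20 TPM in both other samples of the stage.

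Most of the WNT genes that could be tested were lower in the adult chondrocytes. Of the 50 genes, 37 averaged 1 TPM or more and were tested, of which 20 were called lower in the adult samples, 1 was called higher and 16 were not called. Over all tested genes the stages differed widely, with 45.3% called, 21.4% lower and 23.9% higher. The median difference was -1.34 over the 37 WNT genes and 0.16 over all tested genes. The adult values lay below every embryonic value for 24 of the 37 (25.9% over all tested genes) and above every embryonic value for 2, *Lgr6* and *Wnt9a* (30.7% over all tested genes). A filter on the mean lets in genes that are high in 1 stage only. *Wnt2*, *Wnt5b*, *Wnt10b*, *Wnt16*, *Lgr5*, *Rspo2*, *Rspo3* and *Ror1*, 8 genes in all, passed it only through the embryonic samples, and *Fzd10* only through the adult samples. Among the 28 WNT genes that averaged 1 TPM or more within both stages, 13 were called lower and 1 higher, against 20.2% and 24.5% of the 11641 genes tested with such means. In bulk RNA, fewer cells of a type and less RNA per cell cannot be told apart.

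**Figure D1:**
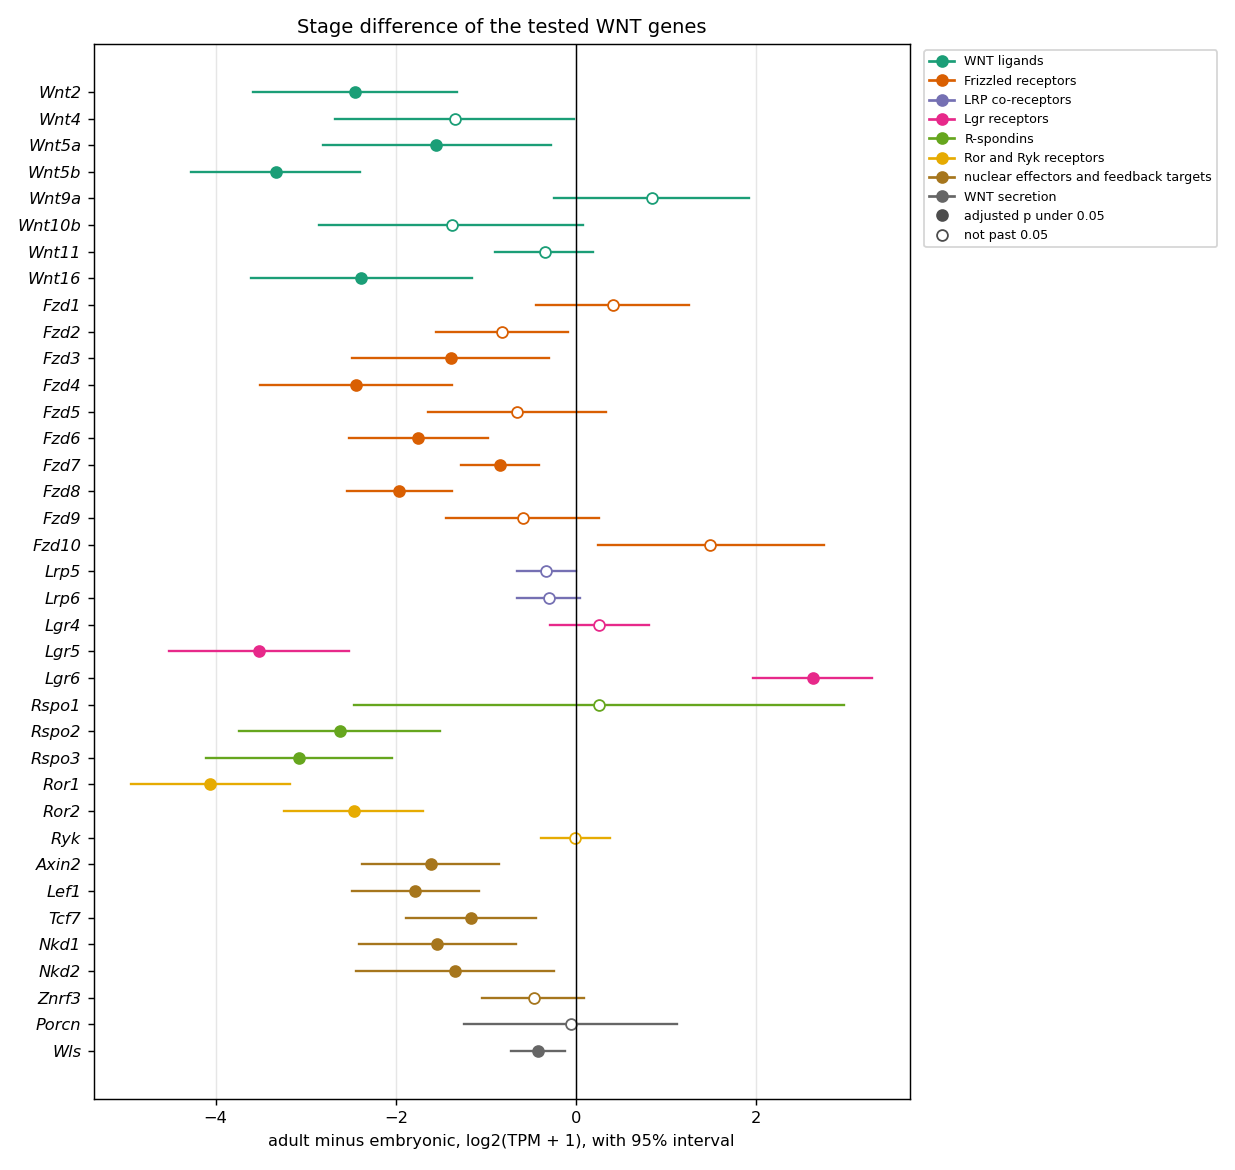
Difference between adult and embryonic samples on the log2(TPM + 1) scale (x axis) for the 37 tested WNT genes (y axis), with 95% intervals from limma, coloured by role, filled where the adjusted p was under 0.05 and open otherwise. *Lgr6* is the only filled point on the right, and 20 filled points lie on the left. The adult values of *Wnt2*, *Wnt10b* and *Wnt16* were all listed at 0, so the position of their points depends on the added 1.

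The marker genes of cartilage and its neighbours also moved between the stages. The 10 chondrocyte markers together held 23330.8 to 24876.4 TPM in the embryos and 8034.9 to 10809.3 TPM in the adults. Of these, 7 were called lower and 2 higher. Most of the embryonic sum was *Col2a1*, which was called lower (means of 14689.3 and 4705.9 TPM). *Sox9* (436 and 715 TPM) and *Sox5* (132 and 203 TPM) were called higher, and *Acan* (1190.5 and 1897.7 TPM) was not called. The 3 articular surface markers rose from 214 to 277 TPM in the embryos to 30836.5 to 37574.4 TPM in the adults. The 6 osteoblast markers summed to 4913.4 to 5995.9 TPM in the embryos and 516 to 1041.2 TPM in the adults (2 lower, 2 higher). Most of the embryonic sum was *Col1a1*, which was called lower (means of 5462.4 and 470 TPM), as was *Dmp1* (12.3 and 1.21 TPM). *Ibsp* (11.6 and 287 TPM) and *Bglap* (0 in the embryos, mean 42.2 TPM in the adults) were called higher. The 5 hypertrophic markers summed to 52.6 to 107 TPM in the embryos and 971 to 1343.2 TPM in the adults (2 higher, *Ihh* at 0 in the adults). The 7 tendon and fibroblast markers summed to 5288.4 to 5963.1 TPM in the embryos and 5535.2 to 6755.5 TPM in the adults (3 lower, 1 higher, 3 not called). These sums held opposite changes. *Dcn* rose from a mean of 261 TPM in the embryos to 5641 TPM in the adults. *Col3a1* fell from 4763.5 to 285 TPM, *Tnmd* from 177 to 0.937 TPM and *Scx* from 39.4 to 1.53 TPM. Of the cells outside the skeleton, the 6 leukocyte markers went from 5.76 to 14.7 TPM in the embryos to 21.6 to 90.6 TPM in the adults with 2 called higher, and the 8 muscle markers from 70.6 to 74.1 TPM to 2.03 to 21.8 TPM with 1 called lower. That muscle gene was *Des*, most of the embryonic muscle sum, at means of 48.6 TPM in the embryos and 0.925 TPM in the adults. The 6 endothelial markers summed to 10.9 to 35.6 TPM in the embryos and 4.2 to 13 TPM in the adults. Of these, 1 was called lower, 2 were not called and 3 were not tested. The gene called lower was *Tek* (means of 12.5 and 0.6 TPM). *Pecam1* (1.51 and 4.17 TPM) had all adult values above the embryonic ones and was not called. The 5 erythroid markers summed to at most 104 TPM in any sample (none called). The 5 epidermal markers summed to at most 2.44 TPM, with *Krt5* and *Krt14* at 0. The part of these cell types in the WNT differences was not tested. The 20 most abundant genes took 10.7% to 11.1% of all TPM in the embryonic and 14.6% to 17.7% in the adult samples, which bears on the value of every other gene.

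Ligand transcripts of the adult chondrocytes were mostly *Wnt11*. Of the 8 ligands tested, 4 were called lower and 0 higher (21.4% and 23.9% over all tested genes). *Wnt2*, *Wnt5b* and *Wnt16*, 3 of the 4 called, passed the filter on the mean only through the embryonic samples, where they are high. Of the 4 ligands averaging 1 TPM or more within both stages, *Wnt5a* alone was called, against 20.2% called lower of all genes with such means. *Wnt11* (chr7:98835112-98855195 of GRCm38), a ligand best known from beta-catenin-independent signaling, was at 43.8, 41.8 and 56.1 TPM in the embryos and at 28.6, 34.0 and 49.7 TPM in the adults. The stages overlapped, and the difference of -0.35 (SE 0.239, 95% interval -0.90 to 0.19, adjusted p = 0.255) was not called. All 19 ligands together summed to 92.9, 81.8 and 106 TPM in the embryos and 36.0, 42.9 and 61.0 TPM in the adults. *Wnt11* made up 47.1%, 51.1% and 52.9% of that sum in the embryos and 79.4%, 79.2% and 81.6% in the adults. Without *Wnt11*, the remaining ligands summed to 49.2, 40.0 and 50.1 TPM in the embryos and 7.41, 8.91 and 11.2 TPM in the adults.

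**Figure D2:**
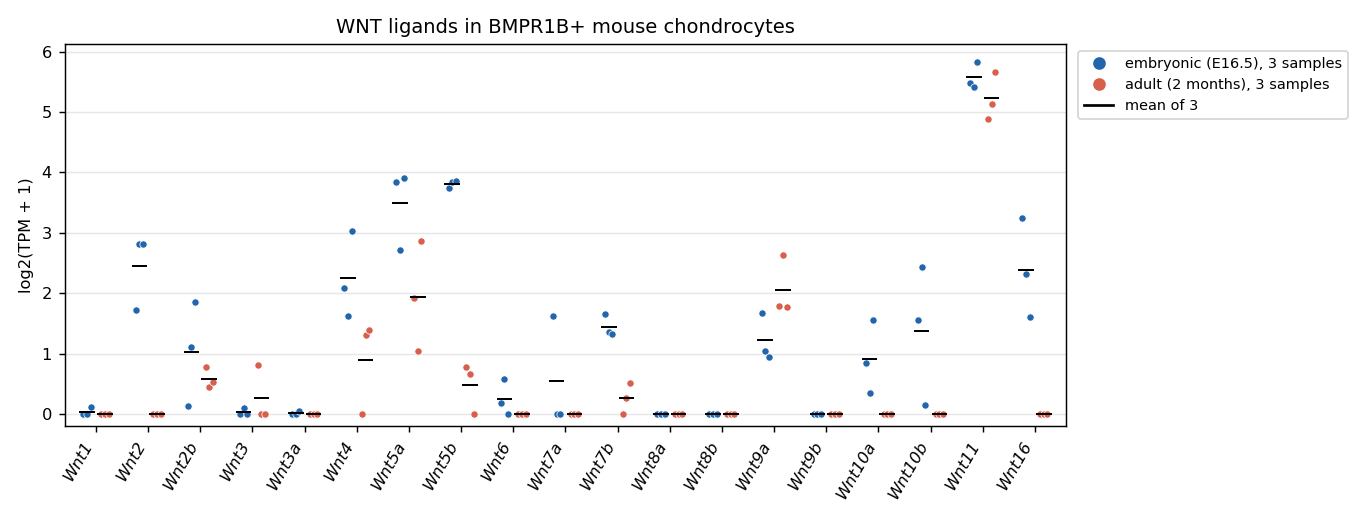
Level of the 19 WNT ligands in each sample (y axis, log2(TPM + 1)) with 3 embryonic samples in blue, 3 adult samples in red and a bar at the mean of each stage. *Wnt11* is the highest ligand in every sample, and *Wnt2*, *Wnt10b* and *Wnt16* stand above 0 in the embryos and at 0 in the adults.

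*Wnt5b*, which belongs with *Wnt5a* to the ligands that act largely without beta-catenin and is known from the growth plate, was at 12.4, 13.3 and 13.5 TPM in the embryos and at 0.722, 0.583 and 0 TPM in the adults. It fell by 3.33 (SE 0.413, adjusted p = 0.00031), the steepest fall among ligands that were still above 0 in an adult sample. *Wnt5a* was at 13.3, 5.55 and 14.1 TPM in the embryos and 2.77, 1.07 and 6.29 TPM in the adults. The highest adult value of *Wnt5a* was above the lowest embryonic one, and its difference of -1.55 (SE 0.557, adjusted p = 0.0488) only just passed the threshold. The call was lost without embryonic sample 1 (adjusted p = 0.153), embryonic sample 3 (0.157), adult sample 1 (0.106) or adult sample 2 (0.139), and under 5 other settings.

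*Wnt2* was at 2.31, 6.01 and 6.02 TPM in the embryos and listed at 0 in all 3 adult samples (adjusted p = 0.00412). *Wnt16*, a ligand known from the synovial joint, was at 8.44, 3.98 and 2.04 TPM in the embryos and likewise listed at 0 in the 3 adult samples (adjusted p = 0.00696). No fold is given for these genes, since a listed 0 sets no lower limit. *Wnt10b* was also listed at 0 in the adults, but its embryonic values ran from 0.109 to 4.44 TPM and it was not called (adjusted p = 0.111), except without embryonic sample 3, its lowest embryonic value (adjusted p = 0.0249). *Wnt4* lay between 2.08 and 7.14 TPM in the embryos and between 0 and 1.64 TPM in the adults (adjusted p = 0.0902).

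*Wnt9a*, a ligand known for its expression in forming joints, was the ligand whose adult values all lay above the embryonic ones, at 0.930 to 2.20 TPM in the embryos and 2.41 to 5.21 TPM in the adults. The difference of 0.84 (SE 0.478, 95% interval -0.25 to 1.92, adjusted p = 0.182) was not called. The other 11 ligands were not tested. *Wnt8a*, *Wnt8b* and *Wnt9b* were listed at 0 in all 6 samples, and *Wnt1*, *Wnt3*, *Wnt3a* and *Wnt6* stayed under 1 TPM in every sample. *Wnt2b*, *Wnt7a*, *Wnt7b* and *Wnt10a* reached at most 2.61 TPM, in the embryonic samples. Counted by sample, 10, 10 and 9 ligands had at least 1 TPM in the embryos and 3, 4 and 4 in the adults.

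The Frizzled receptors, which bind WNT ligands, were all tested. Of the 10, 5 were called lower and 0 higher (21.4% and 23.9% over all tested genes). Together they summed to 218, 197 and 223 TPM in the embryos and 84.8, 118 and 121 TPM in the adults. *Fzd8* was at 45.8, 52.3 and 49.1 TPM in the embryos and 8.35, 14.0 and 14.2 TPM in the adults, a fall of 4.03-fold in mean TPM (difference -1.96, SE 0.254, adjusted p = 0.00039). *Fzd7* was at 49.2, 42.7 and 57.7 TPM against 28.3, 28.7 and 24.6 TPM, with a smaller difference of -0.84 (SE 0.192, adjusted p = 0.00726). *Fzd7* and *Fzd8* were thus about level in the embryos, and *Fzd7* was the higher of the pair in every adult sample.

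*Fzd4* was at 27.1, 18.1 and 34.0 TPM in the embryonic and 5.47, 1.47 and 6.31 TPM in the adults, a 5.97-fold lower mean in the adults (difference -2.44, SE 0.469, adjusted p = 0.00318). *Fzd6*, a Frizzled tied to planar cell polarity, was at 19.5, 26.7 and 17.7 TPM against 3.91, 5.38 and 7.88 TPM (difference -1.75, SE 0.341, adjusted p = 0.00344). In both the stages lay well apart. *Fzd3*, another Frizzled tied to planar polarity, was at 5.20, 3.15 and 6.39 TPM in the embryos and 1.49, 0.419 and 1.96 TPM in the adults (difference -1.39, SE 0.482, adjusted p = 0.0423). The call of *Fzd3* was lost without embryonic sample 1 (adjusted p = 0.111), embryonic sample 3 (0.126), adult sample 1 (0.0609) or adult sample 2 (0.116), and under 5 other settings.

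The remaining Frizzleds did not pass the threshold. *Fzd2* was at 8.91 to 12 TPM in the embryos and 5.13 to 5.87 TPM in the adults, without overlap (adjusted p = 0.0667), and was called lower with quantile normalization (adjusted p = 0.0326), median-of-ratios scaling (0.038) or eBayes without the trend (0.0151). *Fzd1*, *Fzd5* and *Fzd9* overlapped between stages, with means of 18.1, 17.5 and 14.2 TPM in the embryos and 25.9, 11.8 and 9.20 TPM in the adults. *Fzd10* ran from 0.281 to 1.91 TPM in the embryos and from 1.89 to 6.22 TPM in the adults (difference 1.49, SE 0.553, adjusted p = 0.0538), and was called higher without adult sample 3, its lowest adult value (adjusted p = 0.0195), without the 20 highest genes (0.0471) or with eBayes without the trend (0.0447).

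The LRP co-receptors were among the most abundant WNT genes in both stages. *Lrp6* was at 132, 106 and 144 TPM in the embryos and 96.2, 108 and 102 TPM in the adults (difference -0.30, 95% interval -0.65 to 0.04, adjusted p = 0.134). *Lrp5* was at 95.3, 90.8 and 79.8 TPM against 73.1, 67.1 and 70.8 TPM (difference -0.33, SE 0.142, adjusted p = 0.0906). The adult values of *Lrp5* all lay below the embryonic ones, those of *Lrp6* did not, and neither was called. Both were called lower when the samples were rescaled by the median of ratios (adjusted p = 0.026 for *Lrp5* and 0.031 for *Lrp6*).

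**Figure D3:**
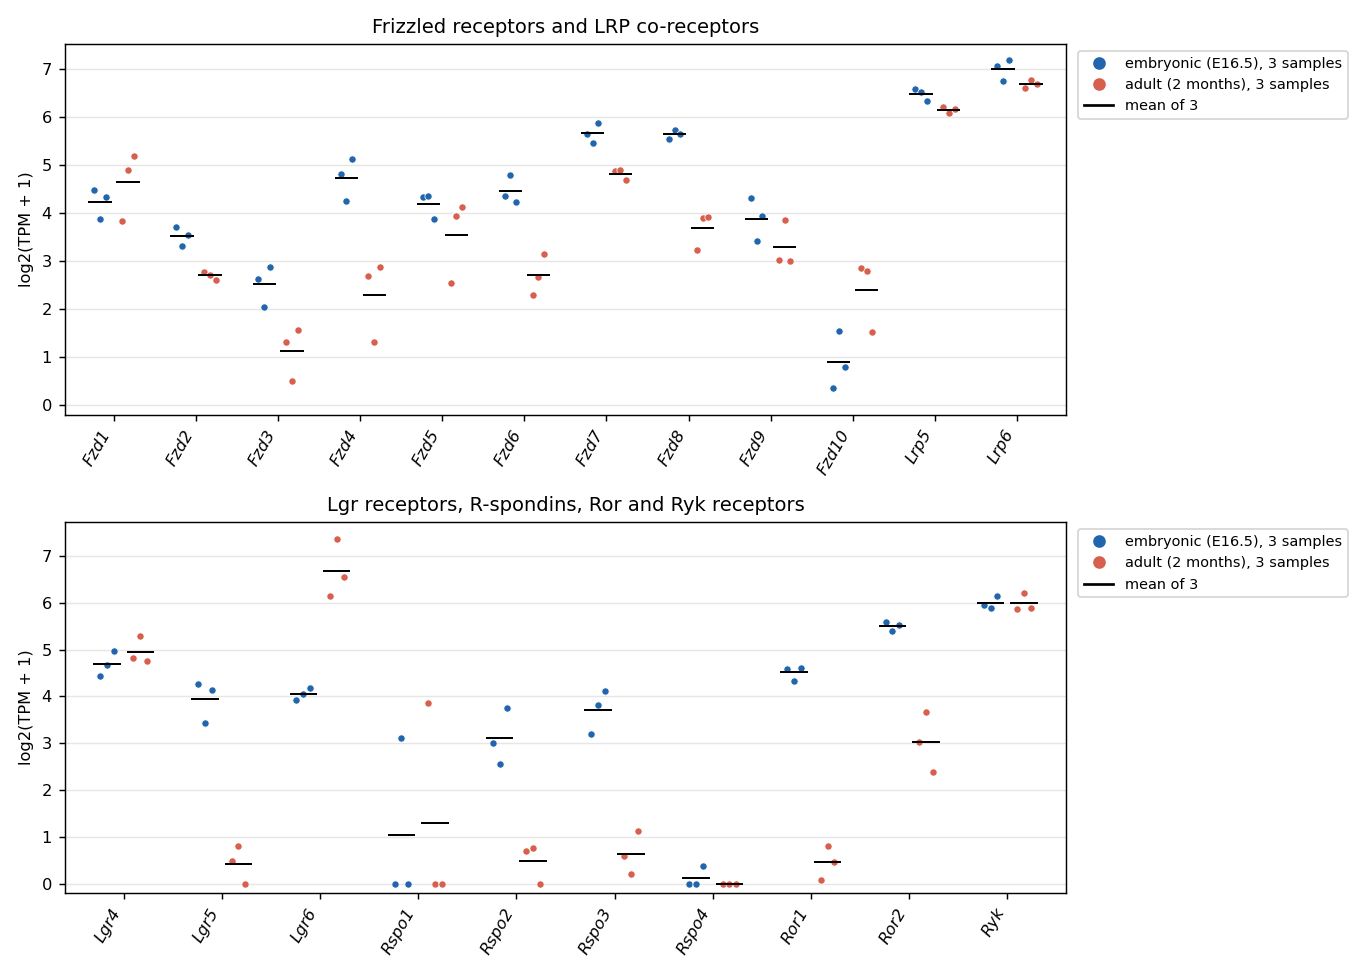
Levels of the Frizzled and LRP genes (upper panel) and of the Lgr, R-spondin, Ror and Ryk genes (lower panel) in each sample (y axis, log2(TPM + 1)), with embryonic samples in blue, adult samples in red and a bar at the mean of each stage. In the lower panel the adult points of *Lgr6* lie above, and those of *Lgr5*, *Rspo2*, *Rspo3*, *Ror1* and *Ror2* below, all embryonic points of the same gene.

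The Lgr receptors, which bind R-spondins, changed in opposite directions. *Lgr6* (chr1:134983301-135105276) was at 14.2, 15.6 and 17.2 TPM in the embryonic samples (mean 15.7 ± 1.47 SD) and at 70.0, 163 and 92.7 TPM in the adults (mean 108 ± 48.4 SD). It was the 1 gene of the list called higher, by 2.63 (SE 0.293, adjusted p = 0.00018, 6.92-fold in mean TPM), and every alternative fit kept the call. *Lgr5* (chr10:115450311-115587780), a stem cell marker in several epithelia, was at 18.2, 9.85 and 16.6 TPM in the embryos and 0.400, 0.736 and 0 TPM in the adults. It fell by 3.52 (SE 0.442, adjusted p = 0.00034), and by 3.31 to 5.38 over the alternative fits. *Lgr5* had passed the filter on the mean only through the embryonic samples, where it is high, whereas *Lgr6* averaged over 1 TPM in both stages. *Lgr4* was at 20.8, 24.6 and 30.5 TPM against 27.3, 38.1 and 26.0 TPM, with overlapping stages (difference 0.26, 95% interval -0.29 to 0.81, adjusted p = 0.416).

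The sum of the 3 Lgr transcripts was higher in every adult sample than in any embryonic one, and its make-up differed. It came to 53.2, 50.1 and 64.3 TPM in the embryos and 97.7, 202 and 119 TPM in the adults. *Lgr6* held 26.7%, 31.2% and 26.7% of it in the embryos and 71.6%, 80.7% and 78.1% in the adults. *Lgr5* held 34.2%, 19.7% and 25.8% in the embryos and at most 0.409% in the adults. *Lgr4* was the most abundant of the 3 in every embryonic sample, and *Lgr6* in every adult sample.

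The R-spondins are the ligands of these receptors. Of the 3 tested, 2 were called lower (21.4% over all tested genes), and both had passed the filter on the mean only through the embryonic samples. *Rspo3* was at 8.17, 13.1 and 16.3 TPM in the embryos and 0.495, 0.147 and 1.17 TPM in the adults (difference -3.08, SE 0.455, adjusted p = 0.00082). *Rspo2* was at 7.04, 4.86 and 12.5 TPM against 0.608, 0.683 and 0 TPM (difference -2.62, SE 0.492, adjusted p = 0.00282). For both genes the adult values lay at or under about 1 TPM and clear of the embryonic ones. *Rspo1* was listed at 0 in 4 of the 6 samples and at 7.70 TPM in embryonic sample 2 and 13.6 TPM in adult sample 1, so that each stage rested on a single sample (adjusted p = 0.877). *Rspo4* reached 0.306 TPM in 1 embryonic sample and was not tested.

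ROR1 and ROR2 are receptor tyrosine kinases that bind WNT5A, and RYK is a further WNT receptor with an inactive kinase domain. *Ror1* (chr4:100095791-100444765) was at 23.1, 19.1 and 23.5 TPM in the embryos and at 0.0581, 0.753 and 0.385 TPM in the adults. It fell by 4.06 (SE 0.388, adjusted p = 7.6e-05), the largest difference of the 37 tested WNT genes on this scale. *Ror1* had passed the filter on the mean only through the embryonic samples, where it is high. Its difference ran from -5.77 to -3.87 over the alternative fits. *Ror2* was at 46.9, 40.9 and 45.1 TPM against 7.18, 11.7 and 4.23 TPM, a 5.74-fold lower mean in the adults (difference -2.47, SE 0.337, adjusted p = 0.00052). *Ryk* was at 60.7, 57.9 and 69.9 TPM against 57.1, 73.2 and 58.1 TPM (difference -0.01, 95% interval -0.39 to 0.38, adjusted p = 0.98). The stages of *Ryk* overlapped, and its share of the 3 transcripts was 46.4%, 49.1% and 50.5% in the embryos and 88.7%, 85.4% and 92.6% in the adults.

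**Figure D4:**
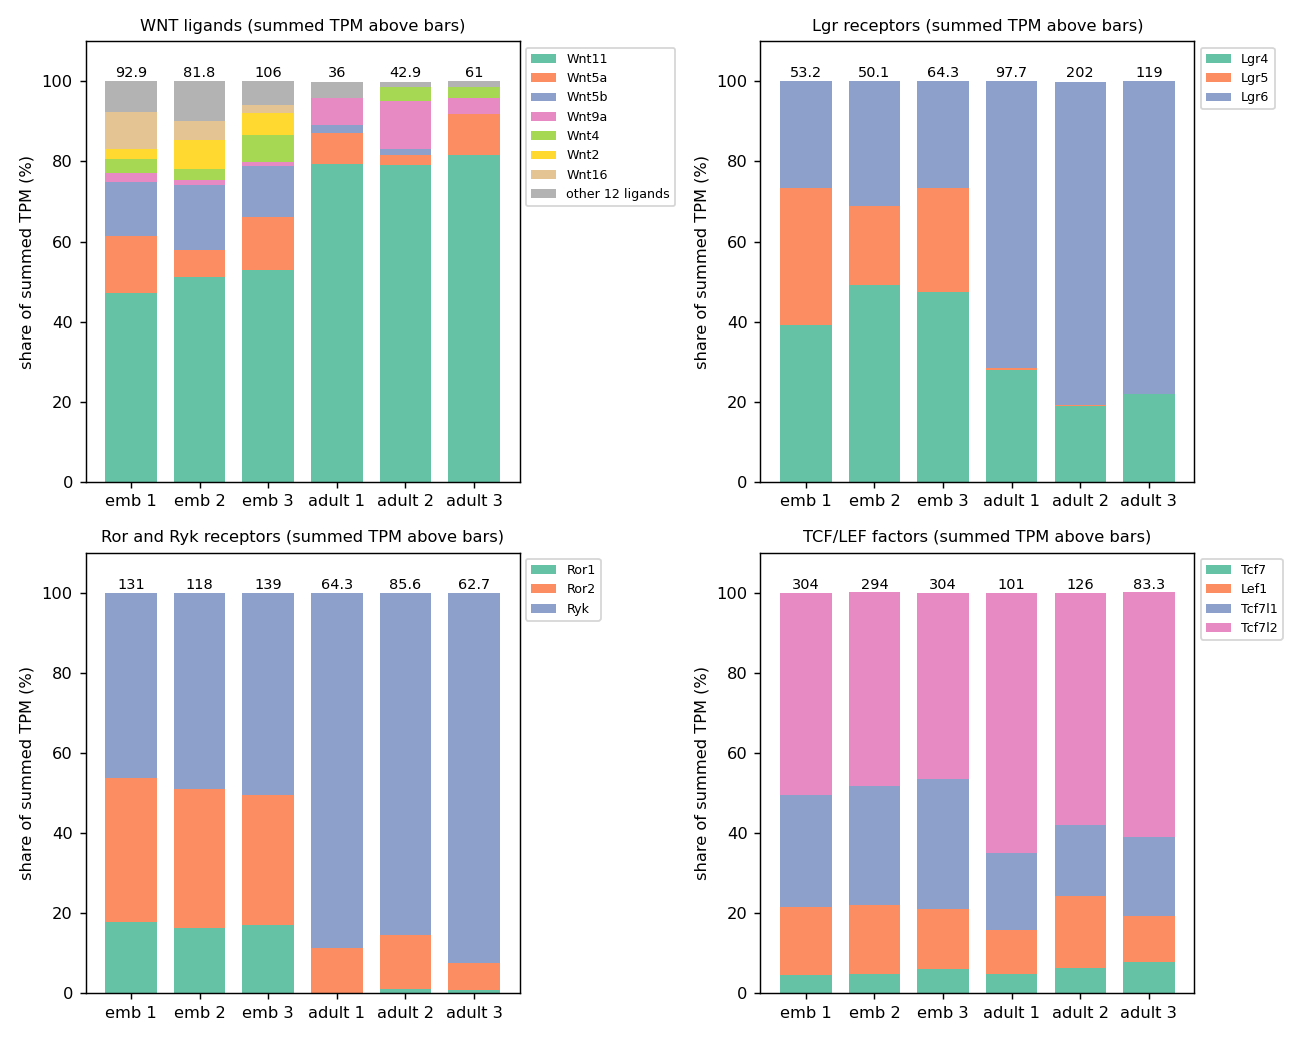
Share of each gene (y axis, percent of the summed TPM) in 4 groups of WNT genes for each of the 6 samples, with the summed TPM above each bar. *Wnt11*, *Lgr6* and *Ryk* take the larger shares in the adult samples, while *Tcf7l2* is the main TCF/LEF transcript in all 6 samples.

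The nuclear effectors and feedback genes are known to be switched on by beta-catenin and TCF/LEF factors in many tissues. Of 7, 6 were tested, all 6 had adult values below every embryonic value, and 5 were called lower. Over all tested genes, these shares were 25.9% and 21.4%. *Axin2* (chr11:108920349-108950783), a scaffold of the destruction complex and the most used readout of the pathway, was at 12.7, 11.8 and 14.1 TPM in the embryonic samples (mean 12.9 ± 1.13 SD) and 4.19, 3.78 and 2.74 TPM in the adults (mean 3.57 ± 0.75 SD). The mean was 3.61-fold lower in the adults (difference -1.61, SE 0.338, adjusted p = 0.00482). *Lef1*, a TCF/LEF factor that is itself a WNT target, was at 51.4, 50.2 and 45.6 TPM against 11.3, 22.5 and 9.55 TPM (difference -1.79, SE 0.309, adjusted p = 0.00187). *Tcf7*, which encodes TCF1, was at 13.7, 14.2 and 17.9 TPM against 4.78, 7.82 and 6.34 TPM (difference -1.17, SE 0.319, adjusted p = 0.0166), and was not called without embryonic sample 3 (adjusted p = 0.0712).

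The Naked cuticle genes encode proteins that bind Dishevelled and damp the signal. *Nkd1* was at 7.18, 8.27 and 12 TPM in the embryos and 2.26, 2.14 and 2.92 TPM in the adults (difference -1.54, SE 0.383, adjusted p = 0.0108). *Nkd2* was at 3.34, 5.30 and 7.89 TPM against 0.848, 1.17 and 2.71 TPM (difference -1.34, SE 0.483, adjusted p = 0.0488). Its call held without adult sample 3 and was lost without embryonic sample 1 (adjusted p = 0.0542), embryonic sample 2 (0.111), embryonic sample 3 (0.153), adult sample 1 (0.115) or adult sample 2 (0.109), as it was under 5 other settings. *Znrf3*, which encodes a ubiquitin ligase that removes Frizzleds, was at 18.7, 20 and 18.8 TPM against 11.3, 14.8 and 14.8 TPM. Its adult values lay below the embryonic ones, but the difference of -0.47 (SE 0.25, adjusted p = 0.152) was not called. Its relative *Rnf43* was listed at 0 in all 6 samples.

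**Figure D5:**
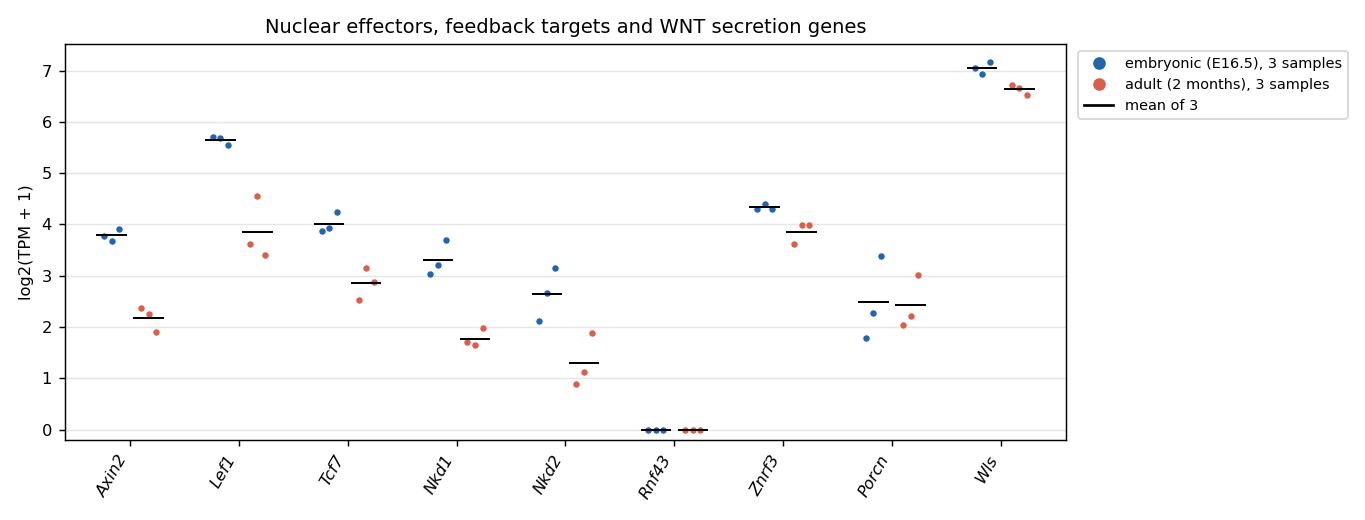
Levels of the nuclear effectors, feedback genes and WNT secretion genes in each sample (y axis, log2(TPM + 1)), with embryonic samples in blue, adult samples in red and a bar at the mean of each stage. *Axin2*, *Lef1*, *Tcf7*, *Nkd1*, *Nkd2* and *Znrf3* separate the stages without overlap, and *Porcn* does not.

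Since TCF/LEF factors bind DNA at a short core, the sequence before the start of the list's genes was searched for it. RefSeq windows of GRCm38.p6, each 300 bases long with 250 before and 50 after an annotated start, were at hand for 35 of the 50 genes. The core was searched as CTTTGAA together with the variants CTTTGAT and then CTTTGTA as well as CTTTGTT, on both strands, which differ in their last letters only. It was found for 5 of the 35 genes (*Fzd7*, *Lef1*, *Wnt11*, *Wnt3* and *Wnt5b*), and for *Lef1* alone among the 6 effector and feedback genes with a window. Over all genes with a window, 18.9% of 27025 held a match, as did 16.9% of all 32851 windows. The windows of *Axin2* (chr11:108920099-108920398, plus strand), of a downstream start of *Lef1* (chr3:131156044-131156343, plus strand) and of *Lgr6* (chr1:135105227-135105526, minus strand) are shown, since *Axin2* is the standard readout, *Lef1* holds the match and *Lgr6* was the gene called higher. Capitals mark the core, which lies on the minus strand 147 bases before the start, and the windows without capitals held none.
Axin2: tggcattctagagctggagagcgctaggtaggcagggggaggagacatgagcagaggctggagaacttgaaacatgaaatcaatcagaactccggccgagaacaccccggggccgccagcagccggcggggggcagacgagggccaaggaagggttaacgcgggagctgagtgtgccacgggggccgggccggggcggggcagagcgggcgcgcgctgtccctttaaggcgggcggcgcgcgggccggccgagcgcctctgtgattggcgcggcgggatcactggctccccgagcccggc
Lef1: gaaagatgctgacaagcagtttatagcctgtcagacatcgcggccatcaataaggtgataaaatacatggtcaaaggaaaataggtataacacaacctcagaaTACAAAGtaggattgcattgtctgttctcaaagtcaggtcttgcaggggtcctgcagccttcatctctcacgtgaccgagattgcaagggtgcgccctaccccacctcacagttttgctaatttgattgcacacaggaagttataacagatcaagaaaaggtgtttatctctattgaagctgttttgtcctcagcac
Lgr6: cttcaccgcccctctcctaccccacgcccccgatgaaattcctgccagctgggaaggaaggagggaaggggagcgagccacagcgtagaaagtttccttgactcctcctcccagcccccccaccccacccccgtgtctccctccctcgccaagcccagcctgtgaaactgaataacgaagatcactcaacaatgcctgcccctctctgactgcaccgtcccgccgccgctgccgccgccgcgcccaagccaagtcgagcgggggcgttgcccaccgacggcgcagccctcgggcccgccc
The windows at the other annotated starts of *Lef1* held no match. A match of these letters is not a bound site, and binding was not measured here. Sequence outside these windows was not searched, so a window without a match does not mean that the gene lacks a TCF/LEF site.

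WNT ligands leave the cell only after PORCN has attached a lipid and WLS has carried them to the surface. *Wls* was at 132, 121 and 142 TPM in the embryos and 104, 99.5 and 91.5 TPM in the adults, the smallest of the called differences at -0.42 (SE 0.133, adjusted p = 0.0309). The call was lost without embryonic sample 1 (adjusted p = 0.0826), embryonic sample 3 (0.105), adult sample 2 (0.0538) or adult sample 3 (0.062), and under 5 other settings. *Porcn* was at 2.47, 3.84 and 9.43 TPM against 3.12, 3.64 and 7.13 TPM (difference -0.06, 95% interval -1.24 to 1.12, adjusted p = 0.936). The stages of *Porcn* overlapped and its samples spread widely within each stage.

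A further 87 genes of the pathway, listed by function, place these values. Of these, 78 were tested, 39 were called lower and 6 higher, and the median difference was -0.64. Over all tested genes, 21.4% were called lower and 23.9% higher, with a median of 0.16, the background for each list below. The filter on the mean let in *Pygo1*, *Gpc2* and *Lypd6* only through the embryonic samples and *Msx2* only through the adult samples. Of the 74 averaging 1 TPM or more within both stages, 37 were called lower and 6 higher, against 20.2% and 24.5% of all genes tested with such means. Beta-catenin itself, *Ctnnb1*, was at 347, 308 and 328 TPM in the embryos and 309, 418 and 378 TPM in the adults and was not called (difference 0.16, SE 0.139, adjusted p = 0.377). Of 20 destruction complex and Dishevelled genes, 9 were called lower and 2 higher. The largest falls were those of *Fbxw11*, an adaptor that marks beta-catenin for degradation (difference -1.18, adjusted p = 0.00106), *Amer1* (-1.03, adjusted p = 0.048) and the kinase gene *Csnk1a1* (-0.95, adjusted p = 0.00045). The genes that rose were *Dvl1*, a Dishevelled that relays the signal from Frizzled (difference 1.06, adjusted p = 0.00041), and *Apc*, a scaffold of the destruction complex (0.57, adjusted p = 0.0131).

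Of the 15 nuclear partners of beta-catenin, 9 were called lower and 0 higher. *Tcf7l1*, a TCF factor best known as a repressor, showed the largest fall, from 85.5, 87.5 and 98.9 TPM to 19.4, 22.4 and 16.6 TPM (difference -2.17, SE 0.183, adjusted p = 4e-05). It was followed by *Ctnnbip1*, an inhibitor of beta-catenin (-1.52, adjusted p = 0.00582), and the co-repressor *Tle4* (-1.38, adjusted p = 0.0125). The 4 TCF/LEF transcripts together, with *Tcf7* and *Lef1*, summed to 304, 294 and 304 TPM in the embryos and 101, 126 and 83.3 TPM in the adults. *Tcf7l2* made up 50.5%, 48.3% and 46.6% of that sum in the embryos and 64.9%, 58.1% and 61.1% in the adults, and *Tcf7l1* 28.1%, 29.8% and 32.5% against 19.2%, 17.8% and 19.9%.

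The branches without beta-catenin, in which *Ror2*, *Wnt5a* and *Fzd6* take part, held 21 further genes, of which 19 were tested, 8 called lower and 3 higher. The largest falls were those of *Nfatc2*, a calcium-dependent transcription factor (difference -4.23, adjusted p = 9.8e-06), *Ptk7*, a planar polarity co-receptor (-3.39, adjusted p = 3.3e-05), and *Prickle1*, a core planar polarity gene (-3.00, adjusted p = 0.00079). *Invs* (difference 1.57, adjusted p = 0.00324), *Celsr2* (1.13, adjusted p = 0.0331) and *Scrib* (0.62, adjusted p = 0.0309) rose.

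Of 17 glypicans and other surface regulators, 14 were tested, 8 called lower and 0 higher. *Gpc3*, a heparan sulfate proteoglycan of the growing embryo, was at 878, 774 and 902 TPM in the embryos and 2.81, 1.13 and 3.81 TPM in the adults (difference -7.97, SE 0.282, adjusted p = 3.8e-07). *Adgra2*, a co-activator of WNT7 signals (-3.48, adjusted p = 0.00036), and *Gpc2* (-2.04, adjusted p = 0.0173) followed. Like *Lypd6*, which was also called lower, *Gpc2* passed the filter on the mean only through the embryonic samples. Of 14 other reported targets of beta-catenin, 10 were tested, 5 called lower and 1 higher. *Ccn4* (difference -4.47, adjusted p = 0.00026), the cyclin gene *Ccnd1* (-3.52, adjusted p = 5.8e-05) and *Myc* (-1.43, adjusted p = 3.8e-05) fell the most. *Msx1*, a homeobox gene, was at 0.952, 3.51 and 1.61 TPM in the embryos and 35.2, 36.6 and 15.4 TPM in the adults (difference 3.31, SE 0.47, adjusted p = 0.00066).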

How the data were processed

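RNA-seq of sorted mouse chondrocytes gave 3 embryonic and 3 adult samples with single-end reads of 50 bases. Samples were grouped by the stage in the labels. Per the labels and the methods, the authors mapped reads to GRCm38 with RefSeq annotations, estimated levels with RSEM (version not given in the sources used here) and deposited log2(TPM + 1) per gene. The labels name a Kapa mRNA-Seq kit and the methods Nugen cDNA synthesis before a Kapa library. All 6 columns were used.

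Gene symbols and positions are those of GENCODE M21, and promoter windows those of RefSeq (GRCm38.p6). Stages were compared with limma 3.58.1 in R 4.3.3 (lmFit, eBayes with trend) on the deposited log2 values with a pseudocount of 1, for genes averaging 1 TPM or more, two-sided, with Benjamini-Hochberg adjusted p-values over all tested genes. EBSeq, named in the methods, needs counts and was not used here. The script was tested on simulated data. The members and the other gene lists were chosen with earlier results of these data known.

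Values per sample are given for every member that passed the threshold and for the 2 most abundant members of each role, and other members by range. Of each further list the 3 largest called changes in each direction are named. The fit was repeated with a pseudocount of 0.1, with all genes or only those averaging 5 TPM, after quantile normalization, after scaling by the median of ratios or without the 20 highest genes, with eBayes lacking the trend or made robust, with a replicate block, at an adjusted p under 0.01 and with every sample dropped in turn. Figures were drawn with Python 3.11.15 and matplotlib 3.10.9.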

Additional observations from a re-analysis of the deposited data

How the results depend on the processing

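Of the 21 called WNT genes, 12 were called under all 16 alternatives and 0 changed sign. *Wnt2*, *Wnt16* and *Rspo2*, a further 3, were called under every alternative that tested them, and were not tested with a mean of at least 5 TPM. Besides *Nkd1*, which was lost only at an adjusted p under 0.01, the calls that were lost under some settings were those of *Wnt5a*, *Fzd3*, *Tcf7*, *Nkd2* and *Wls*. The number called lower ran from 14 at an adjusted p under 0.01 to 23 with median-of-ratios scaling, and was 16 to 19 with a sample left out. The number called higher was 2 when levels were rescaled without the 20 highest genes or eBayes had no trend, and 1 to 2 with a sample left out, the second being *Fzd10*. At an adjusted p under 0.01, 3 further pathway genes were higher and 24 lower, and 3718 genes were called in all. With the scaling, the median of all tested genes moved from 0.16 to 0.03 (median of ratios, 2613 higher and 3238 lower), 0.25 (without the 20 highest genes, 3498 and 2518) and 0.09 (quantile, 2792 and 2830), against 3140 and 2809 as deposited. Among genes not called, the sign changed for *Rspo1* (-1.04 to 1.29 with a sample left out), *Ryk* (0.09 without the 20 highest genes, -0.12 to 0.07 with a sample left out) and *Porcn* (0.02 and -0.40 to 0.39). With a sample left out, a stage keeps 2 samples.

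With a replicate block, 1 WNT gene was called higher and 17 lower, as were 4 and 36 further pathway genes, and 5430 genes in all. The calls lost were those of *Fzd3* (adjusted p = 0.0526), *Nkd2* (0.0547) and *Wls* (0.0748). Samples with the same number did not deviate together (correlations across genes -0.00884, -0.0169 and -0.0223). The labels state no pairing, and values near 0 from 3 samples per stage cannot exclude a shared preparation.

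TPM keeps no depth, and with 3 samples per stage the precision of a value rests on their spread.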

Other observations

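The make-up of the Frizzled pool also differed between the stages, which is given here as a description without a test. *Fzd8* held 21.0%, 26.6% and 22.0% of the summed Frizzled TPM in the embryos and 9.85%, 11.8% and 11.7% in the adults, while *Fzd1* held 9.75%, 6.99% and 8.62% against 15.5%, 24.5% and 29.5%. *Fzd7* held 22.5%, 21.7% and 25.8% against 33.4%, 24.3% and 20.3%, with the highest adult share held by *Fzd7* in adult sample 1 and by *Fzd1* in adult samples 2 and 3.

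Among the ligands other than *Wnt11*, *Wnt9a* held 4.47%, 2.65% and 1.86% of the summed TPM in the embryos and 32.9%, 58.4% and 21.5% in the adults, and *Wnt5b* 25.2%, 33.3% and 26.9% against 9.75%, 6.54% and 0%. The adult shares rest on sums of 7.41 to 11.2 TPM.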
